A study of Mus musculus with 3 samples.

Results

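Vpreb3 and Sox4 B cells are the aortic B cells that held transcripts of both genes, and they were looked at as candidate immature B cells. A cell was a member when it held at least 1 UMI (a unique molecular identifier, 1 captured RNA molecule) of each of Cd79a, Vpreb3 and Sox4 and none of Csf1r, Csf3r or Cd3e. Of 20903 kept cells, 225 met this rule. They were compared with the 6212 other B cells, which held Cd79a and Ms4a1 under the same exclusions. Because the members were selected on transcripts of the same cells, every difference in expression from other B cells is a description and carries no test.

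The study profiled sorted live CD45+ cells, that is, cells of blood origin, from digested whole aortas with their adventitia. All mice were labelled ApoE-/- on the C57BL/6J background, a strain prone to atherosclerosis. The group labelled Ctrl was a control, the group labelled HHcy drank water with Hcy (homocysteine) at 1.8 g/L for 4 weeks, and the group labelled WD ate a western diet for 4 weeks. There was 1 library per group. The labels used here give no number of mice, age or sex, so the spread between mice is unknown, and all intervals below cover counting error only.

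B cells arise in the bone marrow, where they rearrange their heavy-chain and light-chain genes under the RAG recombinase and test the heavy chain with a surrogate light chain. Vpreb3 encodes a protein related to the surrogate light chain that is made from the pro-B to the immature stage, and Sox4 encodes a transcription factor needed by early B cell progenitors. Newly formed cells leave the marrow as transitional cells, which carry the surface proteins CD93 and CD24, and then mature into follicular cells with surface IgD or into marginal zone cells. B1 cells are a separate self-renewing lineage, rich in body cavities, that contributes natural antibody.

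The 3 libraries held 7512, 9753 and 8557 called cells and 66789257, 105180370 and 93164076 UMIs in the order Ctrl, HHcy and WD, which is kept below, and 6038, 8155 and 6710 cells were kept. The library labelled HHcy held Apoe at 374 CPM (UMIs of a gene per 1000000 UMIs) over its called cells, against 16.3 CPM in Ctrl and 19.3 CPM in WD, so Apoe goes against its strain label and all comparisons with it are comparisons with the library so labelled. Between 20 and 24 barcodes were shared by each pair of libraries, and 0 of them were members in both libraries. Members had a median of 5272, 5822 and 5386 UMIs per cell, below the 7953, 6563 and 6905 of other B cells. Their sums for a library were 604444, 410353 and 475668 UMIs.

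The members came from all 3 libraries, 90 from Ctrl, 59 from HHcy and 76 from WD. Vpreb3, on the forward strand of chromosome 10 (chr10:75943057-75949657, GRCm38), was held at a median of 4 UMIs per member in each library and at up to 45 in 1 cell. Sox4, on the reverse strand of chromosome 13 (chr13:28948919-28953713), was held at a median of 1.5 UMIs in Ctrl and 1 in HHcy and WD, and 45 of 90, 32 of 59 and 40 of 76 members held it at a single UMI. Cd79a, the signalling chain of the B cell receptor, was held at medians of 16, 17 and 16.5 UMIs. Membership therefore turned on 1 molecule of Sox4 in at least 50% of the members of each library.

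Transcripts of the 2 genes also appeared outside B cells, and these shares give the background of the rule. Among kept cells with Csf1r and no Cd79a, a macrophage gate, 0.594%, 1.21% and 0.857% held Vpreb3, at median depths of 8504, 9147 and 10364 UMIs. Sox4 was held by 3.27%, 3.70% and 4.81% of the same cells. After thinning each cell to 2000 UMIs those Sox4 shares were 0.779%, 1.18% and 1.20%, and the Vpreb3 shares were 0.260%, 0.147% and 0.138%. Cells with Col1a1 and Col3a1 and no Cd79a, a fibroblast gate, held Sox4 more often, in 3 of 36, 17 of 91 and 43 of 188 cells. Among other B cells, 1.37%, 0.821% and 1.55% held Sox4, while 24.7%, 43.0% and 32.4% held Vpreb3. As cells with both genes were members, these cells held only 1 of the 2. Their shares are thus set in part by the rule and give no background.

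Members formed a smaller share of the B cells in HHcy and a larger one in WD than in Ctrl. They made up 4.54% of members and other B cells in Ctrl (exact 95% Clopper-Pearson interval 3.66% to 5.55%), 1.76% in HHcy (1.34% to 2.27%) and 6.87% in WD (5.45% to 8.53%). The counting intervals of HHcy and Ctrl lay apart, and those of Ctrl and WD overlapped narrowly. On the log2 scale the ratio of shares to Ctrl was -1.36 (-1.83 to -0.90) for HHcy and 0.60 (0.17 to 1.03) for WD. With each cell thinned to 2000 UMIs before the rule was applied, the shares were 2.43%, 0.95% and 3.44%. The thinned ratios to Ctrl were -1.36 (-2.02 to -0.69) for HHcy and 0.50 (-0.11 to 1.11) for WD. With 2 or more Sox4 UMIs required, the WD ratio was 0.52 (-0.10 to 1.14), so both of these WD intervals held 0.

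The direction for WD turned with the denominator. Of all kept cells, members made up 1.49% in Ctrl (1.20% to 1.83%), 0.723% in HHcy (0.551% to 0.932%) and 1.13% in WD (0.893% to 1.42%). The log2 ratio to Ctrl was then -1.04 (-1.51 to -0.57) for HHcy and -0.40 (-0.83 to 0.04) for WD. Other B cells numbered 1894, 3288 and 1030 in the libraries, so the B cells against which the members were counted differed in number too. With 1 library per group, the treatment, the dissection and the library cannot be told apart.

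**Figure D1:**
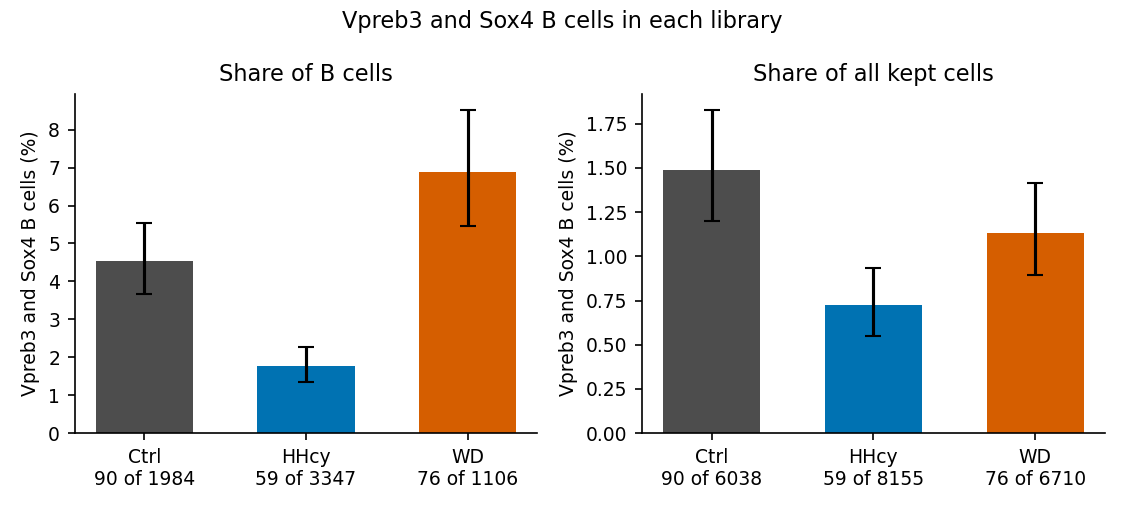
Share of Vpreb3 and Sox4 B cells (percent, y axis) in each library, of members and other B cells (left) and of all kept cells (right). Bars show the share and whiskers the exact 95% interval of counting error. HHcy was lowest in both panels, and WD was above Ctrl at left (6.87% against 4.54%) and below it at right (1.13% against 1.49%).

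Against other B cells of the same library, members carried more of the transcripts of early and newly formed B cells and fewer of class-switched, plasma cell and B1 transcripts. For each population and library the UMIs of all its cells were added up and scaled to CPM, and a gene was called when its log2 ratio passed 1, a 2-fold difference, in the same direction in all 3 libraries. Of 6076 genes compared, 164 were called higher, which is 2.7% of them, and 68 were called lower, which is 1.12%. A gene too rare in other B cells to reach the minimum of UMIs was compared only where members held it, and could not be called lower. The median gene lay at 0.34, 0.24 and 0.30 on the log2 scale in the 3 libraries, and not at 0. Measured from that median, 92 genes were called higher and 108 lower, so the balance of higher and lower genes turned with the scaling. Without the HHcy library, the call needed Ctrl and WD alone and 279 genes were higher and 153 lower. The 30 genes named by rank below were 2.21 or more from 0 in every library, and each of them was also called when measured from the median. Of the 20 named higher, all but Fam129c reached the minimum of UMIs only through their members' sums. These genes could not be called lower, so their calls describe the members and lend no support.

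Both further markers of these cells, which the rule did not use, were among the genes called higher. Klhl14, an adaptor of a ubiquitin ligase, stood at 116, 85.3 and 92.5 CPM in members and at 13.6, 10.2 and 15.3 CPM in other B cells. It was held by 44 of 90, 21 of 59 and 34 of 76 members. Its log2 ratios were 3.09 (2.69 to 3.48), 3.06 (2.51 to 3.57) and 2.59 (2.07 to 3.10). Akap12, a scaffold that anchors protein kinase A, stood at 76.1, 53.6 and 73.6 CPM against 10.4, 8.33 and 10.9 CPM, with ratios of 2.87, 2.69 and 2.76. In each library the level in members lay above that in other B cells for both genes, as a call requires. Klhl14 and Akap12 reached the minimum of UMIs in HHcy only through members, so neither could be called lower. Both markers were chosen with earlier results of these data known. Of the cells in the macrophage gate, 0.297%, 0% and 0.0659% held Klhl14, where 0 of 1407 cells in HHcy allows up to 0.213%.

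Among transcription factors, Myb, Lef1 and Gfi1 were among the 20 genes named for the largest difference. Myb, a factor of blood progenitors that is shut down as B cells mature, stood at 127, 46.3 and 84.1 CPM in members and at 6.56, 4.73 and 6.52 CPM in other B cells. The log2 ratios were 4.28 (3.84 to 4.71), 3.29 (2.51 to 3.99) and 3.69 (3.07 to 4.30). It was held by 27 of 90, 11 of 59 and 26 of 76 members, and the 3 cells with the most Myb held 42.9%, 57.9% and 25.0% of its UMIs. Lef1, the nuclear partner of beta-catenin in Wnt signalling and a factor of pro-B cells, stood at 41.4, 14.6 and 29.4 CPM against 2.22, 1.48 and 5.15 CPM. Only 14, 4 and 13 members held Lef1, and the 3 cells with the most held 52%, 83.3% and 28.6% of its UMIs. Gfi1, a repressor used in lymphoid progenitors, stood at 61.2, 34.1 and 58.9 CPM against 7.81, 5.16 and 11.4 CPM. Across the 24 B lineage transcription factors compared, 3 were called higher (Spib, Lef1 and Myb) and 0 lower, with a median log2 ratio of 0.83 against 0.30 over all genes. Lef1 and Myb were compared only through their members' UMIs and could not be called lower. Ebf1, the factor that commits cells to the B lineage, was not called, with ratios of 0.61, 0.72 and 0.76.

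Wnt10a and Vangl2, which belong to Wnt signalling as a secreted ligand and a protein of planar cell polarity, were also named. Wnt10a stood at 49.6, 31.7 and 50.5 CPM in members and at 2.0, 0.954 and 3.09 CPM in other B cells, and it had the largest median log2 ratio of the genes named higher, 4.64. It was held by 21, 7 and 17 members. Vangl2 stood at 28.1, 19.5 and 27.3 CPM against 2.28, 2.72 and 2.40 CPM. In HHcy, 4 members held all of its UMIs.

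Fam129c, a membrane-associated protein of B cells, stood at 366, 283 and 256 CPM in members and at 43.7, 23.7 and 45.5 CPM in other B cells, and it was the named gene held by the most members, 73, 39 and 51. Tifa, an adaptor of NF-kB signalling, stood at 89.3, 78.0 and 92.5 CPM against 10.3, 8.44 and 12.7 CPM. Dusp6, a phosphatase that switches off ERK, stood at 92.6, 68.2 and 153 CPM against 13.0, 12.2 and 17.5 CPM. In all 3 of these genes every library showed a higher level in members, which the choice of the named genes required.

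Atp1b1, a subunit of the sodium pump, stood at 141, 95.04 and 141 CPM against 11.4, 13.5 and 19.2 CPM in other B cells. Serinc5, a membrane protein that restricts retroviruses, stood at 111, 65.8 and 94.6 CPM against 12.9, 10.1 and 14.1 CPM. Lig4, the DNA ligase that seals rearranged antigen receptor genes, stood at 19.9, 17.1 and 33.6 CPM against 4.16, 2.86 and 2.40 CPM and was held by 10, 5 and 11 members. It was the only 1 of the 6 recombination genes compared that was called. Lig4 was compared only through its members' UMIs and could not be called lower. The other named genes were Gpat3, Slco4a1, Nuak1, Coq7, Csrp2, Edaradd and Cdk5r1, with median log2 ratios from 2.39 for Edaradd to 3.65 for Nuak1.

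**Figure D2:**
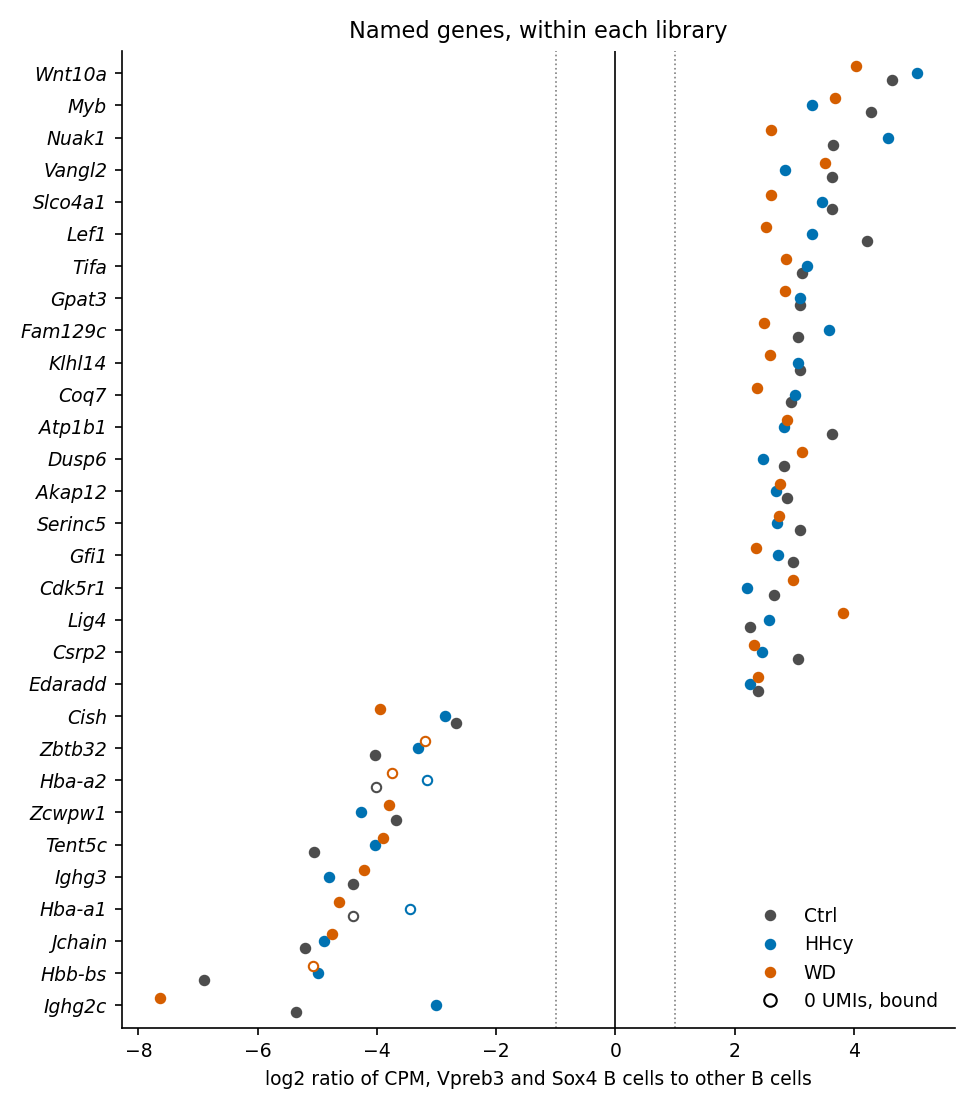
Log2 ratio of CPM between members and other B cells (x axis) for the 20 genes named higher and the 10 named lower, 1 point per library. Open circles are ratios with 0 UMIs in members, taken at 3 counts, and dotted lines mark the 2-fold limits. Every point lies beyond the limit, because the genes were chosen for that.

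Genes of transitional B cells lay higher in members for 6 of 15 compared and lower for 0, with a median log2 ratio of 0.63. The 6 were Cd93, Cd24a, Myb, Bmf, Spib and Cd72, and 5 of them, without Bmf, were called when measured from the median of all genes. Myb and Cd93 reached the minimum of UMIs in HHcy only through members, so they could not be called lower. Cd93, the receptor that defines transitional cells in flow cytometry, stood at 52.9, 29.2 and 58.9 CPM against 8.84, 7.73 and 11.7 CPM, and was held by 25.6%, 16.9% and 23.7% of members and 5.97%, 4.96% and 8.25% of other B cells. It is not specific to B cells, and 32.0%, 33.8% and 41.4% of the macrophage gate and 14.2%, 15.4% and 34.9% of the gate of T cells (Cd3e and no Cd79a) held it, at higher median depths. With each cell thinned to 2000 UMIs, 10.1%, 5.08% and 5.26% of members held it against 1.76%, 1.80% and 4.40% of other B cells, so the shares were close in WD. Cd24a, a small surface glycoprotein lost on maturation, stood at 887, 565 and 734 CPM against 291, 227 and 295 CPM, with ratios of 1.61, 1.31 and 1.31. Cd72, an inhibitory partner of the B cell receptor, stood at 617, 602 and 769 CPM against 112, 194 and 163 CPM. Spib, an ETS factor of the B lineage, stood at 826, 597 and 885 CPM against 203, 176 and 215 CPM.

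Genes of pro-B and pre-B cells could be compared for 6 of 19 listed genes, of which 4 were called higher (Lef1, Myb, Tifa and Cecr2) and 0 lower. Lef1, Myb and Tifa reached the minimum of UMIs in HHcy only through their member sums, so a lower call was not possible for them. The genes that define those stages were held by few members. Rag1 was held by 1, 1 and 3 members with 1, 1 and 6 UMIs in all, and Rag2 by 2, 0 and 0 members. Igll1, a chain of the surrogate light chain, was held by 1 Ctrl member, and Vpreb1, the other chain, by 3, 0 and 1. Single Vpreb1 UMIs were also found in 15, 9 and 7 other B cells.

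A few single cells held several of these transcripts together. In Ctrl, 1 member with 29590 UMIs held 4 Igll1, 5 Vpreb1, 6 Il7r and 17 Myb UMIs, no Ms4a1 and 2 Igkc UMIs, with all 12 mitotic genes of the list detected. A second Ctrl member with 17453 UMIs held 15 Il7r, 10 Myb and 45 Vpreb3 UMIs, again with 12 mitotic genes. In WD, 1 member with 2645 UMIs held 4 Rag1 and 15 Sox4 UMIs and no Igkc or Ms4a1. These cells were picked after their values were seen. Ms4a1, which encodes CD20, was absent from 1, 0 and 2 members.

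No member held mostly class-switched heavy-chain UMIs. In 0 of 90, 0 of 59 and 0 of 76 members did class-switched heavy-chain UMIs exceed those of Ighm and Ighd, with upper limits of 4.02%, 6.06% and 4.74%. Among other B cells this held for 3.43%, 1.98% and 2.62%. These shares lay under the members' upper limits, so a lower share in members was not shown. Ighm, the IgM heavy chain, was detected in every member, at 7028, 6219 and 8128 CPM against 4356, 5138 and 5306 CPM in other B cells. Its ratios of 0.69, 0.28 and 0.62 were under the 2-fold limit.

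Of the 6 heavy-chain constant genes compared, 4 were called lower (Ighg2b, Ighg2c, Ighg3 and Igha). Ighg2c stood at 8.27, 48.7 and 2.10 CPM in members and at 338, 392 and 421 CPM in other B cells. Ighg3 stood at 1.65, 21.9 and 2.10 CPM against 34.9, 611 and 39.0 CPM. The share of cells with Ighg2c was 5.56%, 27.1% and 1.32% of members and 6.23%, 29.99% and 6.60% of other B cells, close in Ctrl and HHcy, where the populations differed in UMIs per holding cell. For Ighg3 in HHcy the shares were 13.6% and 12.3%. With every cell thinned to 2000 UMIs, the median ratio of Ighg2c was 0.34, with sums of 0 taken at 3 counts.

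IgD was low relative to IgM. Members held 2.87, 7.17 and 3.60 Ighd UMIs per 100 Ighm UMIs, against 5.56, 11.1 and 5.52 in all other B cells. Other B cells with Fcer2a and Ighd and no Vpreb3, a follicular gate, held 23.5, 23.9 and 25.5, a level that the gate itself raises. Other B cells with at least 2 of Bhlhe41, Zbtb32, Cd5, Spn, Ctla4 and Tppp3, a B1 gate, held 1.43, 1.14 and 0.885. Members thus lay between the gates in each library. Ighd itself was detected in 50 of 90, 44 of 59 and 37 of 76 members.

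Neither gate carried the leading transcripts of the members at their level. Klhl14 stood at 12.4, 9.12 and 10.8 CPM in the follicular gate and at 4.95, 5.90 and 5.93 CPM in the B1 gate, against 85.3 to 116 CPM in members. Fam129c stood at 25.2, 15.6 and 20.8 CPM in the follicular gate and at 32.2, 26.9 and 29.2 CPM in the B1 gate. Wnt10a was at most 1.24 CPM in the follicular gate and at most 2.01 CPM in the B1 gate. Both gates were drawn from other B cells, and the follicular gate holds no cell with Vpreb3 by its rule.

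B1 cell genes had median log2 ratios of -2.68, -0.65 and -1.92 in the 3 libraries over 12 genes compared, and of -1.92 over the libraries. The difference was thus smallest in HHcy, where 3 of 12 lay above 0, against 1 of 12 in Ctrl and in WD. Of the 12 genes, 5 were called lower (Zbtb32, Ctla4, Tppp3, S100a6 and Plscr1) and 1 higher (Bhlhe40). Zbtb32, a repressor of B1 and memory cells, stood at 3.31, 2.44 and 0 CPM in members against 54.4, 24.3 and 57.5 CPM. S100a6, a calcium-binding protein, stood at 48.0, 324 and 109 CPM against 2082, 707 and 1649 CPM. In HHcy, 75.2% of its UMIs in members came from 3 cells. Other B cells included 726, 490 and 322 cells of the B1 gate, and these cells are part of the level compared with.

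Plasma cell genes were called lower for 3 of 6 compared, Jchain, Prdm1 and Mzb1. Jchain, which links IgM and IgA into polymers, stood at 3.31, 24.4 and 12.6 CPM in members against 122, 717 and 341 CPM. It was held by 2.22%, 16.9% and 7.89% of members and 5.70%, 13.8% and 5.24% of other B cells, so in HHcy and WD the lower level did not go with a lower share of cells. Without cells that held 3 or more markers of another lineage, and with sums of 0 taken at 3 counts, its median ratio was 0.029. That alternative left only 54, 19 and 27 members. Mzb1, a chaperone of immunoglobulin in the endoplasmic reticulum, stood at 190, 217 and 139 CPM against 445, 616 and 464 CPM. Tent5c, Zcwpw1 and Cish were also named lower. Tent5c, a poly(A) polymerase of plasma cells, stood at 4.96, 4.87 and 8.41 CPM against 164, 79.4 and 125 CPM.

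The haemoglobin genes Hbb-bs, Hba-a1 and Hba-a2 were among the named lower genes and were held by few cells of either population. Hbb-bs was held by 2.32%, 1.76% and 2.04% of other B cells, at 196, 154 and 212 CPM, and by 1, 2 and 0 members. Hba-a1 was held by 1.69%, 0.852% and 2.43% of other B cells and by 0, 0 and 2 members, and Hba-a2 by 1.32%, 0.639% and 0.874% of other B cells and by 0 members. The median ratio of Hbb-bs was 1.09 without cells that held 3 or more markers of another lineage, with sums of 0 again taken at 3 counts and only 54, 19 and 27 members left.

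Mature follicular genes were called in neither direction, 0 higher and 0 lower of 16, with a median of -0.25 against 0.30 over all genes. Fcer2a, which encodes CD23, stood at 103, 171 and 94.6 CPM against 83.7, 197 and 98.0 CPM. Ccr7, the receptor that guides cells toward T cell zones, stood at 783, 614 and 933 CPM against 317, 331 and 379 CPM, with ratios of 1.30, 0.89 and 1.30.

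Among genes of homing and egress, 1 of 16 was called higher and 2 lower. Cnr2, a cannabinoid receptor that retains immature B cells in marrow sinusoids, stood at 36.4, 87.7 and 61.0 CPM against 16.3, 22.0 and 19.8 CPM, and was not called when measured from the median of all genes. Ccr6 stood at 13.2, 19.5 and 21.02 CPM against 39.0, 88.6 and 48.4 CPM. Gpr183, an oxysterol receptor that positions B cells in follicles, stood at 34.7, 70.7 and 12.6 CPM against 128, 156 and 147 CPM. These levels rest on 4 to 12 members each for Ccr6 and Gpr183.

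Receptor signalling was represented by single genes. Tnfrsf13c, the receptor for the survival factor BAFF, stood at 534, 380 and 505 CPM against 137, 129 and 149 CPM and was called with Bmf among 12 survival genes. Ptpn6, the phosphatase SHP-1, stood at 571, 553 and 664 CPM against 185, 236 and 231 CPM and was the only 1 of 18 receptor signalling genes called. Egr1, induced early after receptor engagement and by tissue digestion, stood at 806, 531 and 990 CPM against 199, 175 and 248 CPM. Atf3, a stress gene also induced by digestion, was lower, at 142, 46.3 and 116 CPM against 774, 268 and 717 CPM. Over the 17 genes of the dissociation list the median was -0.12, with 1 gene called in each direction.

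The cell cycle genes were split by library. Of all 6076 genes compared, 4399, 4216 and 4263 lay above 0 in the 3 libraries. In Ctrl all 13 cell cycle genes compared lay above 0 with a median of 1.25. In HHcy 1 of 13 and in WD 6 of 13 did, with medians of -0.86 and -0.47. Few cells carried this. Members with at least 3 of 12 mitotic genes numbered 5, 1 and 1, and held 21.8%, 5.17% and 3.30% of the members' UMIs. The largest Ctrl member held 62918 UMIs. Among other B cells 3.85%, 2.65% and 2.43% met the same limit.

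Markers of other lineages were found in members as in other B cells, and their part in the results was not tested. At least 3 of 7 specific macrophage genes, among them C1qa, C1qb, C1qc and Adgre1, were held by 2, 4 and 7 members, or 2.22%, 6.78% and 9.21%, and by 7.55%, 7.39% and 14.7% of other B cells. Over the 17 macrophage and monocyte markers the summed level was 582, 885 and 1049 CPM in members against 705, 898 and 1001 CPM, with 17, 16 and 15 of the genes detected in members. At least 3 of these 17 were held by 38.9%, 66.1% and 64.5% of members and by 51.3%, 62.4% and 73.9% of other B cells. Fibroblast and smooth muscle markers summed to 36.4, 1738 and 77.8 CPM in members and to 32.6, 132 and 232 CPM in other B cells. In HHcy 1 member with 17343 UMIs held at least 3 of Col1a1, Col1a2, Col3a1, Dcn and Lum. T cell and NK markers summed to 31.4, 53.6 and 50.5 CPM against 78.8, 79.3 and 100.1 CPM, with Cd3e at 0 by the rule and Trbc1, Lat, Klrb1c, Ncr1 and Bcl11b at 0 in members of every library.

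Klhl14 was followed across the limits of the rule. In Ctrl it stood at 6.62 CPM in B cells with neither transcript, 23.6 CPM with 1 Vpreb3 UMI and no Sox4, and 43.5 CPM with 2 or more Vpreb3 UMIs and no Sox4. Just inside the rule, members with 1 Vpreb3 UMI stood at 77.5 CPM, and those with 2 or more stood at 139 CPM with 1 Sox4 UMI and at 126 CPM with more. The step from 2 or more Vpreb3 UMIs without Sox4 to 1 Vpreb3 UMI with Sox4 rested on few UMIs. In Ctrl the interval was 35.3 to 53.0 CPM outside the rule and 42.4 to 130 inside. The level went from 16.3 (13.4 to 19.6) to 38.2 CPM (14.0 to 83.1) in HHcy. In WD it went from 45.1 (34.7 to 57.7) to 47.7 CPM (9.84 to 139). The 2 intervals overlapped in every library, so neither a step nor a difference of it between libraries was shown at this depth. Cells with Sox4 and no Vpreb3, 27 in Ctrl, stood at 28.4 CPM.

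The cells just outside the rule differed by library. With 2 or more Vpreb3 UMIs and no Sox4 there were 269, 751 and 196 B cells, more than there were members. Their Klhl14 level was 43.5, 16.3 and 45.1 CPM, their Cd24a level 574, 287 and 458 CPM, and their Cd93 level 34.5, 14.5 and 29.4 CPM. HHcy was lowest on each, and its interval for Klhl14, 13.4 to 19.6 CPM, lay below those of Ctrl (35.3 to 53.0) and WD (34.7 to 57.7). In the innermost class, with 2 or more UMIs of both genes, Klhl14 stood at 126, 147 and 87.4 CPM and the 3 intervals overlapped.

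**Figure D3:**
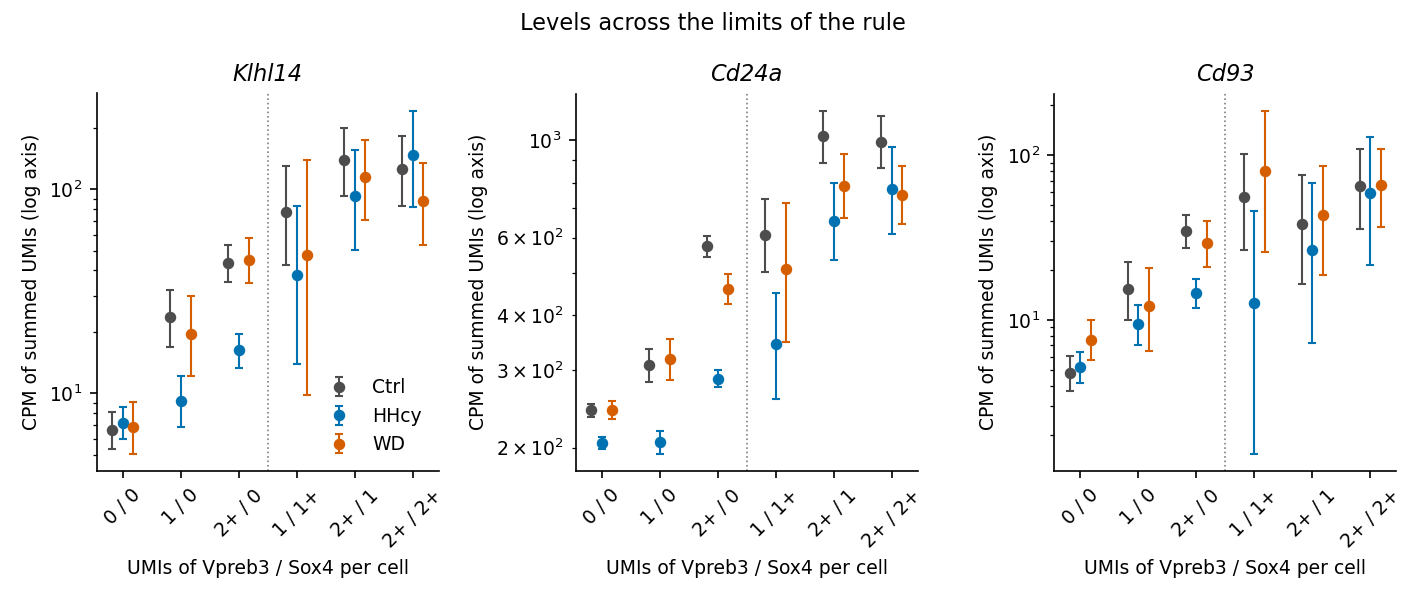
CPM of Klhl14, Cd24a and Cd93 (log axes) in B cells grouped by their UMIs of Vpreb3 and Sox4, with exact 95% intervals of counting error, by library. Cells right of the dotted line met the rule. Levels were higher in the class furthest right than in the class furthest left, for Klhl14 in Ctrl 126 against 6.62 CPM. Not every level rose across the dotted line, and Cd93 in HHcy went from 14.5 to 12.7 CPM. HHcy lay below Ctrl and WD in the class just outside the rule.

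Between libraries, members of HHcy were compared with members of Ctrl for 5217 genes with at least 10 expected UMIs in each. Of these, 179 were past 2-fold higher, which is 3.43%, and 271 lower, which is 5.19%, with a median of -0.09 on the log2 scale. The 10 highest were Dcn, Col1a2, Bgn, Sparc, Igfbp6, Sfrp4, Fn1, Prnp, Pcolce and Fmo2, most of them genes of the extracellular matrix, and each was held by 1 to 4 HHcy members. The 10 lowest were Il7r, Rrm2, Ube2c, Mcm5, Ncapg2, Cdca8, Mki67, Dut, Pclaf and Cdc34, most of them genes of DNA replication and mitosis. All 145 Pclaf UMIs of Ctrl came from 3 cells. Dcn, a matrix proteoglycan of fibroblasts, stood at 231 UMIs in HHcy, all in 1 cell, and at 0 in Ctrl. Mki67, a marker of dividing cells, stood at 14.6 CPM in HHcy against 106 CPM in Ctrl, from 2 and 5 cells. With the cycling cells and the cell with fibroblast markers left out, 57 HHcy and 85 Ctrl members remained, and 100 genes were higher and 189 lower of 4840. Of the 100, 76 had been called before.

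The cell cycle list was compared with and without those cells, which were chosen by their mitotic genes, so that its change is set by the choice. With all members, 12 of 13 cell cycle genes were called lower in HHcy than in Ctrl, with a median of -2.0. Without those cells, 1 of 6 was called higher and 0 lower, with a median of 0.01, over fewer genes than before. In the other B cells the median was 0.06 with or without them.

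Mature follicular genes lay higher in HHcy members with and without those cells. Of 15 genes compared with all members and 16 without those cells, 4 were called higher each time, among them Ighd, Cr2 and Klf2, and 0 were lower. Ighd stood at 446 CPM in HHcy and 202 CPM in Ctrl, a log2 ratio of 1.14 (0.81 to 1.49), beside 1.24 in other B cells. Klf2, a factor of quiescence and egress, stood at 609 CPM against 243 CPM, a ratio of 1.32 (1.03 to 1.63), while other B cells stood at -0.34. Cr2, the complement receptor CD21, had a ratio of 1.47 (0.54 to 2.44) from 16 and 13 cells. The median of the list was 0.56, and 0.41 without those cells, beside 0.39 and 0.43 in other B cells. With each cell thinned to 2000 UMIs the ratio was -0.80 for Ighd, and with 2 or more Sox4 UMIs required it was -1.63 for Cr2, so these directions turned. That of Klf2 did not, with ratios from 0.41 to 1.42 over the alternatives run.

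Of 11 class II genes, 2 were called higher in HHcy members, H2-Eb1 and H2-DMb1, and 0 lower. H2-Eb1 stood at 2057 CPM in HHcy members and at 943 CPM in Ctrl members, a ratio of 1.13 (0.97 to 1.28), beside 0.43 in other B cells. Over the 11 genes the median was 0.64 in members, with 10 above 0, beside 2206 of all 5217 genes. It was 0.44 without those cells, when 0 were called. Other B cells stood at 0.43 and 0.46. Macrophage and monocyte markers lay higher in the same members, with a median of 0.53 over 7 compared and C1qa and Apoe called, and of 0.91 without those cells with Mrc1 called too, beside 0.20 and 0.21 in other B cells. Their part in the class II values was not tested. Against other B cells of the same library, class II genes had a median of -0.26 in members over the libraries. Of these, 1 of 11 lay above 0, beside 4526 of all 6076 genes.

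Myb was lower in HHcy members, at 46.3 CPM against 127 CPM, a ratio of -1.46 (-2.27 to -0.72), and it was also called without the cycling cells. With each cell thinned to 2000 UMIs the ratio was 0.29. Over the 15 transitional genes the median was -0.18, and -0.37 without those cells, with 1 called lower. Itgb7, a homing integrin chain, stood at 65.8 CPM against 13.2 CPM, from 12 and 5 cells, a ratio of 2.31 (1.14 to 3.66), while other B cells stood at -0.45.

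WD members were compared with the same Ctrl members for 5645 genes, so both comparisons share their controls. Here 129 genes were higher, which is 2.29%, and 188 lower, which is 3.33%, with a median of -0.02. Cell cycle genes again filled the lower end, with 10 of 13 called lower and a median of -1.71, and Mki67 at 6.31 CPM against 106 CPM. Without the cycling cells, 4 of 8 were called higher and 0 lower, with a median of 0.75. Here too the 5 Ctrl members and 1 WD member left out were chosen by genes of this kind.

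Of 18 interferon-stimulated genes compared in WD members, 17 lay above 0 and 3 were called higher (Isg15, Ifit3 and Xaf1), beside 2684 above 0 and 129 called higher of all 5645 genes. Isg15, a ubiquitin-like protein induced by interferon, stood at 46.3 CPM against 9.93 CPM, from 9 and 6 cells, a ratio of 2.22 (0.87 to 3.81), beside 1.01 in other B cells. With each cell thinned to 2000 UMIs its ratio was -1.45. Ifit3 stood at 42.0 CPM against 6.62 CPM, beside 15.1 against 5.07 CPM in other B cells. The list's median was 0.55, and 0.27 without the cycling cells, beside 0.72 and 0.51 in other B cells. Macrophage and monocyte markers lay higher in the same WD members, with a median of 0.90 over 6 compared and 3 called (C1qa, C1qb and Ctss), beside 0.75 in other B cells, and their part was not tested. In HHcy members the same list had a median of -0.10 over 14 genes, beside 0.22 in other B cells.

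The 10 highest genes in WD were Hbb-bt, Ms4a6c, Lgals3, Ifit3, Ifitm3, Isg15, B3gnt7, Hspa1a, Lilr4b and Hspa1b, and the 10 lowest were Pclaf, Birc5, Hist1h2ap, Mki67, H2afx, Rrm2, Hist1h1b, Mad2l1, Hist1h2ae and Exosc9. Lgals3, a galectin abundant in macrophages, stood at 113 UMIs in WD, of which 3 cells held 81.4%, and at 22 in Ctrl. Hspa1b, a heat shock protein, stood at 88.3 CPM against 23.2 CPM, and 85.7% of its UMIs in WD came from 3 cells. Gpr183 stood at 12.6 CPM against 34.7 CPM, from 4 and 7 cells, a ratio of -1.46 (-3.06 to -0.10), while other B cells stood at 0.20. Mature follicular genes had a median of 0.15 in WD members, and -0.14 without the cycling cells.

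**Figure D4:**
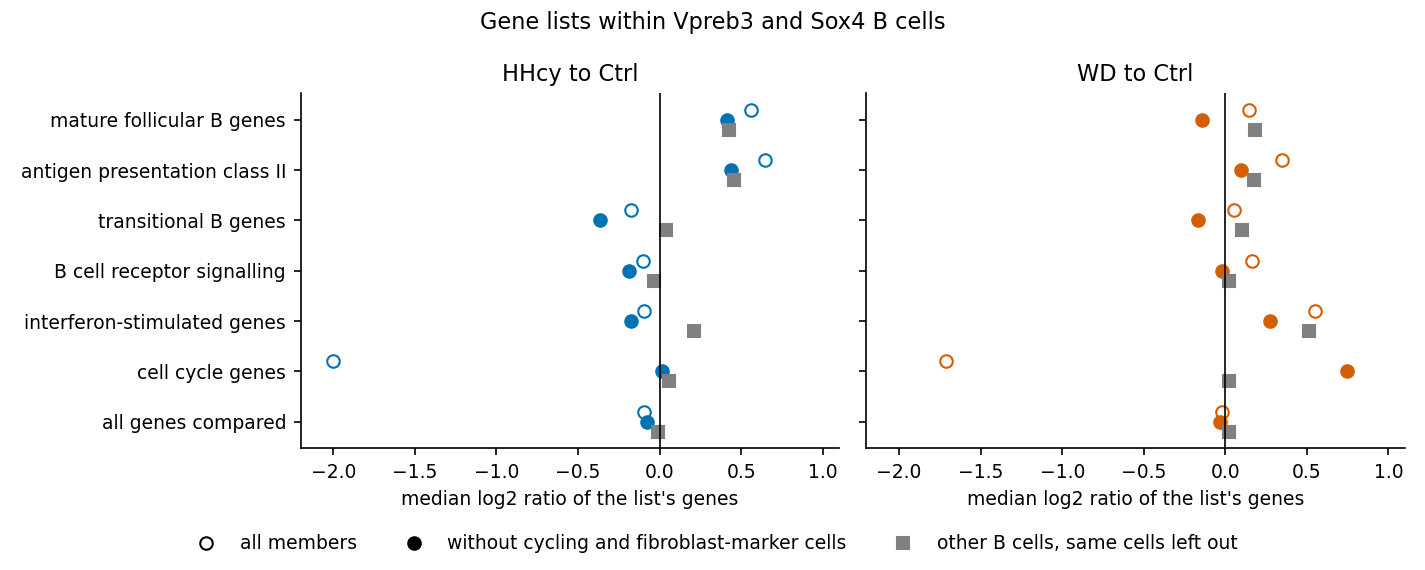
Median log2 ratio to Ctrl of the genes of 6 lists and of all genes compared, for HHcy (left) and WD (right). Open circles are all members, filled circles are members without cycling cells and cells with fibroblast markers, and squares are other B cells with the same cells left out. The cell cycle list moved from -2.0 to 0.01 in HHcy and from -1.71 to 0.75 in WD, as cells were left out by mitotic genes, while follicular and class II genes stayed above 0 in HHcy.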

How the data were processed

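Single-cell RNA sequencing of sorted aortic CD45+ cells was read from the authors' deposited matrices of raw UMI counts per gene and barcode, which carry no normalization. Cell Ranger was version 4.0.0 per the file headers and 2.2.0 per the submitters' processing notes, which give the build mm10. Chromium 3' chemistry was used per the labels' protocols. Barcodes with under 200 detected genes or over 10% mitochondrial UMIs were left out. No doublet caller was run.

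Members and gene lists were chosen with earlier results of these data known. UMIs were summed per library and population and scaled to CPM. Ratios carry exact conditional binomial intervals, shares exact 95% Clopper-Pearson intervals, all for counting error only. A gene was compared with other B cells when its members' sum, or the sum expected at the other B cells' level, reached 5 UMIs in each library and 30 over the 3. A gene that reached these limits only through its members' sum could not be called lower. A sum of 0 was taken at 3 counts. With 1 library per group no test was made. The text names the 20 genes called higher and 10 called lower with the largest smallest ratio over the libraries, the leading called genes between libraries, and genes of the lists. The 33 lists included markers of other cell types. Unnamed gene models and immunoglobulin segments were left out of names. Gene positions are from GENCODE M21 (GRCm38). The comparison code was tested on simulated counts. Python 3.11.15, numpy 2.4.6, scipy 1.17.1, pandas 2.3.3 and matplotlib 3.10.9 were used. Alternatives changed the filters, the rule, the scaling and the cells compared. Further sets of left-out cells (cycling, fibroblast-marker, macrophage-marker, and the first 2 together) were chosen after seeing the data.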

Additional observations from a re-analysis of the deposited data

Results flagged for a closer look

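For 9 genes the members passed 2-fold between libraries while the other B cells lay at least 0.5 the opposite way on the log2 scale, with an interval apart from 0. With 1 library per group these differences were not tested. In HHcy against Ctrl, Fn1 stood at 5.96 in members and -0.79 in other B cells, and 4 HHcy members held its UMIs. Cd9 stood at 3.17 against -0.90, S100a6 at 2.76 against -1.56, and Lgals1 at 1.20 against -0.61. The 3 leading cells held 82.0%, 75.2% and 79.5% of these genes' UMIs in HHcy members. Bhlhe41, a factor of B1 cells, stood at 1.14 (0.23 to 2.09) against -0.93, from 15 and 14 members. Pmaip1, a cell death gene, stood at 1.62 against -0.61, Pim2, a survival kinase, at 1.14 against -0.63, and Hspa1a at 1.11 against -0.69. In WD against Ctrl, Il7r, the interleukin-7 receptor of early B cells, stood at -1.07 in members (-2.36 to 0.09) and 0.64 in other B cells, and 91.7% of its UMIs in Ctrl members came from 3 cells.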

How the results depend on the processing

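No paired analysis was possible because each group has 1 library. Over the genes named, 1133 of 1342 values against other B cells stayed within the standard deviation of the 3 libraries' log2 ratios around the value reported. Between HHcy and Ctrl members 220 of 274 values, and between WD and Ctrl members 93 of 104, stayed within the counting interval of the value reported. The direction turned for 4, 8 and 2 genes in these 3 comparisons. Where no cause is named, the cause was not tested. The WD share ratio was 1.04 with at most 5% mitochondrial UMIs and -0.40 with all kept cells as denominator. Its interval held 0 with cells thinned to 2000 UMIs, with 2 Sox4 UMIs required and with all kept cells as denominator. Genes higher and lower than in other B cells numbered 59 and 19 with cells thinned to 2000 UMIs, 104 and 41 with double the minimum of UMIs, and 92 and 108 centred on the median. There were 337 higher with no minimum and 31 lower without cells holding 3 markers of another lineage. The latter left 54, 19 and 27 members. Leaving out 1 library gave 159 to 279 higher and 55 to 153 lower, both highest without HHcy. In HHcy against Ctrl, the higher and lower counts were 65 and 164 with 2 Vpreb3 UMIs required, 63 and 143 with 2 Sox4 UMIs, 19 and 38 thinned, 25 and 96 without cells of other-lineage markers, 99 and 174 without macrophage-marker cells, 66 and 100 with double the minimum, and 1215 and 1100 with none. There were 113 higher at 5% mitochondrial UMIs and 100 without cycling and fibroblast-marker cells. In WD against Ctrl they were 31 and 56 thinned, 34 and 115 without other-lineage markers, 32 and 53 with double the minimum, and 863 and 841 with none. Log2 ratios of HHcy to Ctrl that changed sign were, for Hspa1a, -1.34 at 20% mitochondrial UMIs, -0.84 with 2 Vpreb3 UMIs and -0.15 with 2 Sox4 UMIs. With 2 Vpreb3 UMIs Fn1 was -1.58, Lgals1 -1.20 and S100a6 -0.027. With 2 Sox4 UMIs Cr2 was -1.63, Cd9 -0.41 and S100a6 -1.76. Thinned, Ighd was -0.80, Myb 0.29 and Lgals1 -1.03. Fn1 was -0.12 without fibroblast-marker cells, -0.14 without macrophage-marker cells and -0.39 without fibroblast-marker and cycling cells, when Lgals1 was -0.48. Cd9 was -0.11 without other-lineage markers. In WD, Isg15 was -1.45 and Il7r 0.87 thinned, and Il7r was 1.62 without cycling cells, also with fibroblast-marker cells out, and 0.72 as a mean over cells. Against other B cells, Ighg2c was 0.34 thinned, and without other-lineage markers Hbb-bs was 1.09, Jchain 0.029 and Basp1 0.13. Members numbered 59 to 90 a library, so some genes named against other B cells rest on few UMIs, such as the 6 of Lef1 in HHcy.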

Other observations

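Interferon-stimulated genes lay above 0 in members against other B cells for 16 of 17 compared, beside 4526 of all 6076 genes. Their median log2 ratio was 0.80 against 0.30 over all genes, although only Oas1a was called. Ly6d, a surface protein of early B and plasmacytoid dendritic cells, stood at 2546, 3180 and 3751 CPM in members of Ctrl, HHcy and WD against 1111, 1355 and 1468 CPM in other B cells, and Siglech, which defines plasmacytoid dendritic cells, was at 0 in HHcy and WD members. Iglc1, a lambda light-chain constant gene, stood at 960, 1762 and 1602 CPM against 428, 664 and 618 CPM. Of cells with at least 10 light-chain UMIs, 87.6% of Ctrl members and 77.0% of other Ctrl B cells had neither kappa nor lambda above 90%, so cells were not sorted by light chain. Among cells left out for their mitochondrial share, 4 of 125, 1 of 155 and 2 of 105 B cells met the rule.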
